A study of Mus musculus with 11 samples.

Results

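The genes described are 8 collagen chain genes, taken by name: Col6a1, Col6a2 and Col6a3 of collagen VI, Col8a1 and Col8a2 of collagen VIII, and Col12a1, Col14a1 and Col16a1, the chains of collagens XII, XIV and XVI. They are 8 of the 19629 rows of the deposited normalized table and 8 of the 48709 mouse genes of the count table, and all 8 were among the 14757 genes with enough counts to be tested. Aortic arches were dissected from mice on postnatal day 11 and their RNA was sequenced in bulk. The WT group holds 5 mice with 2 wild-type copies of Tgfbr2 (WT 1 to 5). The Het group holds 6 littermates heterozygous for the G357W substitution in Tgfbr2 (Het 1 to 6), which models Loeys-Dietz syndrome type II, an inherited connective tissue disorder with aortic aneurysm. No treatment was given to either group per the labels, and strain and sex are not in the labels. Tgfbr2 encodes 1 of the receptors of the cytokine TGF-beta, and the comparison of Het with WT asks what the substitution does to the transcriptome of the young aorta.

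Collagens are trimers of chains that wind around each other along stretches in which glycine stands at the head of each triplet of residues. The 3 collagen VI chains join into a heterotrimer that assembles into beaded microfilaments, which lie around cells and link them to the interstitial matrix. Collagen VIII is a short-chain collagen that forms open networks and is made by endothelial and smooth muscle cells in vessel walls. Collagens XII, XIV and XVI make no fibrils of their own: their interrupted triple helices associate with fibrils of the major collagens and with other matrix proteins, and collagens XII and XIV carry large non-collagenous arms at the amino end.

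The repeat that makes these chains collagens can be read in the coding sequence as a glycine codon (GGN) at the head of each triplet of codons. A stretch of 12 codons from the longest such run of each gene is shown to place the 8 chains side by side. Each is written 5′ to 3′ on the coding strand, with the glycine codons in capitals, from the GRCm38 genome. Every stretch lies inside 1 coding exon.
Col6a1: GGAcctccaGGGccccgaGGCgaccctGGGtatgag
Col6a2: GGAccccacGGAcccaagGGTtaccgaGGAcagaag
Col6a3: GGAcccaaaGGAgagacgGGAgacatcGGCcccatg
Col8a1: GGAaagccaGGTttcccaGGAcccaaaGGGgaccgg
Col8a2: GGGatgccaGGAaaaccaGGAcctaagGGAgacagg
Col12a1: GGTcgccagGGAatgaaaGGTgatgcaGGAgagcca
Col14a1: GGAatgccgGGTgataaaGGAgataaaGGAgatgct
Col16a1: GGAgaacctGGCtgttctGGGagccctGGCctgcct

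These stretches lie at chr10:76720961-76720996 (minus strand) for Col6a1, chr10:76613255-76613290 (minus) for Col6a2 and chr1:90792410-90792445 (minus) for Col6a3. Those of collagen VIII lie at chr16:57628057-57628092 (minus) for Col8a1 and chr4:126311132-126311167 (plus) for Col8a2. The others lie at chr9:79612934-79612969 (minus) for Col12a1, chr15:55472927-55472962 (plus) for Col14a1 and chr4:130079646-130079681 (plus) for Col16a1.

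The genes differ in how much of the chain the repeat takes up, counted over runs of at least 6 triplets. In Col6a1 and Col6a2 the longest run was 87 triplets in both, and runs made up 32.2% of 1025 codons and 31.9% of 1034 codons. Col6a3, whose chain carries many more non-collagenous domains, had a longest run of 45 triplets, and runs made up 12.4% of its 2677 codons. The short chains Col8a1 and Col8a2 were mostly repeat, 62.1% of 744 codons and 66.1% of 699 codons, broken into 9 runs each. Col12a1 and Col14a1 had the same layout, 5 runs with 84 triplets in all and a longest run of 32, which was 8.2% of the 3065 codons of Col12a1 and 14.0% of the 1798 codons of Col14a1. Col16a1 had 18 runs that covered 60.4% of its 1580 codons. All the coding exons that lie whole inside the longest run had a length that is a multiple of 9 bases, 14 of 14 in Col6a1, 13 of 13 in Col6a2, 6 of 6 in Col6a3, 5 of 5 in both Col12a1 and Col14a1 and 7 of 7 in Col16a1. In Col8a1 and Col8a2 no exon lies whole inside the run.

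Libraries held 13113467 to 19327935 counts. Levels are given as CPM, counts scaled to a library of standard size, and a count of 0 allows a level of up to 3 counts, which is 0.154 to 0.231 CPM. Tgfbr2 (ENSMUSG00000032440) lay at 38.3 to 48.8 CPM in WT and at 30.9 to 51.4 CPM in Het, a log2 fold change of -0.085 ± 0.13 (SE) which did not pass edgeR's quasi-likelihood test (adjusted p 0.79). The counts do not separate the alleles, so they do not check the genotype labels. The groups differ in sex-linked genes: Xist, of the inactive X chromosome, ranged from 58.4 to 78.6 CPM over WT 1 to 5, Het 1 and Het 2 and was at no more than 0.735 CPM in Het 3 to 6, while the Y-linked Ddx3y had 0 counts in those 7 libraries and 86.4 to 110 CPM in Het 3 to 6. WT thus has no Y-positive library. WT 1 and WT 2 stood apart on the leading principal component of all tested genes (23.3% of the variance), at -56.9 and -52.8, with WT 3 at -15.1 and the others between -1.5 and 29.9. Values below are therefore also given with a sex score as a covariate, in the 7 Xist-positive libraries and without WT 1 and WT 2 where these end a call, turn a direction or clearly move a value. A number in the deposited column names, whose meaning the labels do not give, was tried as a further covariate (the column number). It was 7 in WT 1, WT 2, WT 4, WT 5, Het 3 and Het 6. In WT 3, Het 1, Het 2, Het 4 and Het 5 it was 6, so it is partly confounded with genotype.

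The labels describe the dissected tissue as vascular smooth muscle and endothelium. All 8 smooth muscle and all 8 endothelial markers looked up were tested, and their sums overlapped between the groups. The smooth muscle sum was 33610 to 38120 CPM in WT and 30470 to 41500 CPM in Het, and the endothelial sum was 359.7 to 489.9 and 334.2 to 538.0 CPM. Most of each sum came from 1 gene, Acta2 (mean 27064 CPM in WT) and Pecam1 (296 CPM). The sums thus say little on the other markers. Of the log2 fold changes, 3 of 8 smooth muscle and 5 of 8 endothelial markers were positive, with medians of -0.020 and 0.22. Cnn1, the smooth muscle protein calponin, was the 1 marker of these that passed the test: it fell from 2431 ± 499 to 1706 ± 254 CPM, a log2 fold change of -0.51 ± 0.13 (SE) with an adjusted p of 0.0346. Genes that mark adventitial fibroblasts, known makers of collagen VI, summed to 1034 to 1479 CPM in WT and 996.5 to 1533 CPM in Het, so the fibroblast sums of the groups overlapped. Of these 9 markers, Dpep1 was higher in Het, Pi16 was lower and 7 did not pass the test. Skeletal muscle markers summed to 21.31 to 43.1 CPM in WT and 8.831 to 16.5 CPM in Het without overlap, with Pvalb at 0 in every library and with Tnnt3 and Tnni2 the 2 of 4 tested markers that fell. Most of this sum was Tnnt3, with means of 27.0 CPM in WT and 8.76 CPM in Het. Acta1 and Mylpf, the other 2 tested, had log2 fold changes of 0.55 and 0.068 and were not called. Cartilage markers summed to 21.72 to 30.5 CPM in WT and 41.82 to 79.64 CPM in Het, through Acan alone: Matn1 was at 0, and Sox9 was lower. Markers of fat, Ucp1 among them, summed to 759.1 to 2765 CPM in WT and 322.1 to 2065 CPM in Het. The fat sums thus varied widely between libraries and overlapped, and none of the 6 fat markers passed the test. Their part in the results below was not tested, except that a fibroblast score and a skeletal muscle score entered the fit as covariates. In bulk RNA, fewer cells of a type and less RNA per cell cannot be told apart.

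Collagen VI and collagen XIV made up most of these transcripts. Per kilobase of the transcript with the longest coding sequence, Col6a1 had the highest level in WT, at 126.6 ± 17.9 CPM per kb (SD, n = 5). Col6a2 followed at 65.0 ± 16.7, Col14a1 at 41.2 ± 2.97 and Col6a3 at 21.9 ± 1.65 CPM per kb. Col16a1 at 1.86 ± 0.398 and Col12a1 at 1.69 ± 0.402 CPM per kb were much lower and their ranges overlapped. Col8a2 at 0.300 ± 0.142 and Col8a1 at 0.260 ± 0.198 CPM per kb were the lowest, again with overlapping ranges. In Het, Col6a1 was at 104.2 ± 6.10 CPM per kb (SD, n = 6), followed by Col6a2 at 52.3 ± 3.82 and Col14a1 at 47.9 ± 3.84, whose ranges overlapped, and by Col6a3 at 19.4 ± 1.18. Col12a1 at 3.21 ± 0.493 and Col16a1 at 2.83 ± 0.555 CPM per kb stood in the reverse order to WT, and their ranges overlapped in both groups. The place of Col6a2 depends on the length used: over all its annotated exons (8.33 kb instead of 3.95 kb) it came to 30.8 CPM per kb in WT and 24.8 in Het, below Col14a1 at 38.0 and 44.1 on the same scale.

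**Figure D1:**
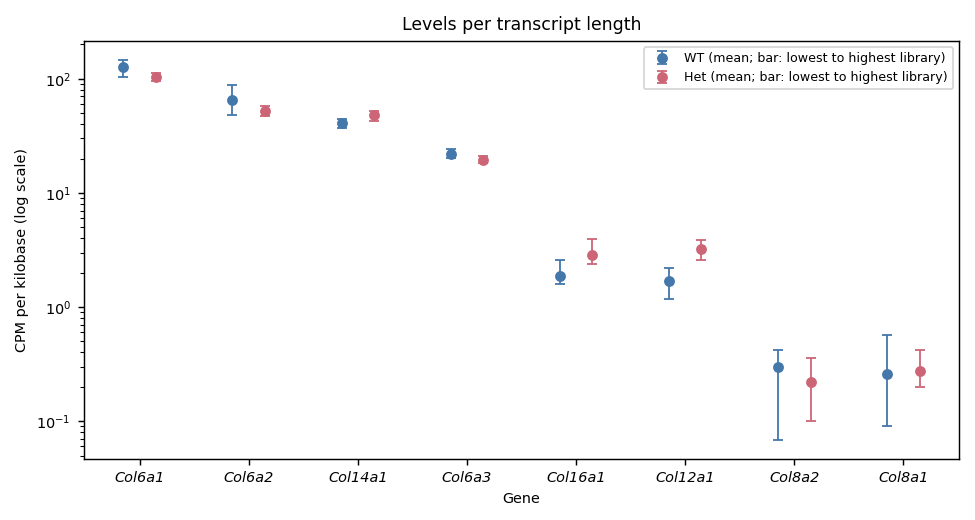
Level of each collagen chain gene per kilobase of its transcript (CPM per kb, log axis), WT and Het side by side, with points for the group means and bars from the lowest to the highest library. Collagen VI chains and Col14a1 lie above 10 CPM per kb in every library, Col12a1 and Col16a1 between 1 and 4, and the collagen VIII chains below 1.

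Of the 8 genes, Col12a1 and Col16a1 rose in Het, none fell, and 6 did not pass the test (adjusted p under 0.05, edgeR's quasi-likelihood test over 14757 genes). Over all tested genes 2.65% were called higher and 2.38% lower. At an unadjusted p under 0.05, 3 of the 8 were higher and 3 were lower, where 9.55% and 9.85% of all tested genes were. By DESeq2, 2 were called higher and 1, Col6a1, lower, and limma voom called 2 higher and 0 lower. Over all 14757 tested genes DESeq2 called 654 higher and 641 lower, more than edgeR's 391 and 351, and limma voom called 420 and 358. The DESeq2 and limma voom counts of the related lists below stand beside these same totals. The median log2 fold change of the 8 genes was -0.038 with 4 of 8 positive, beside -0.0046 over all tested genes, of which 49.2% were positive. Both calls are lost with the sex score as a covariate, in the 7 Xist-positive libraries and with the skeletal muscle score as a covariate, when 0 of the 8 were called higher. In that order, those fits called 63 of 14757, 19 of 15600 and 52 of 14757 tested genes higher, beside 391 in the main fit. Few genes of any kind were thus called in them. The skeletal muscle score itself separated the groups, at 1.434 to 2.082 in WT and 0.431 to 1.319 in Het. A fit with it therefore cannot well tell the score from the genotype. The labels do not say whether the mice came from 1 litter or several, and p-values measure the spread between these libraries.

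**Figure D2:**
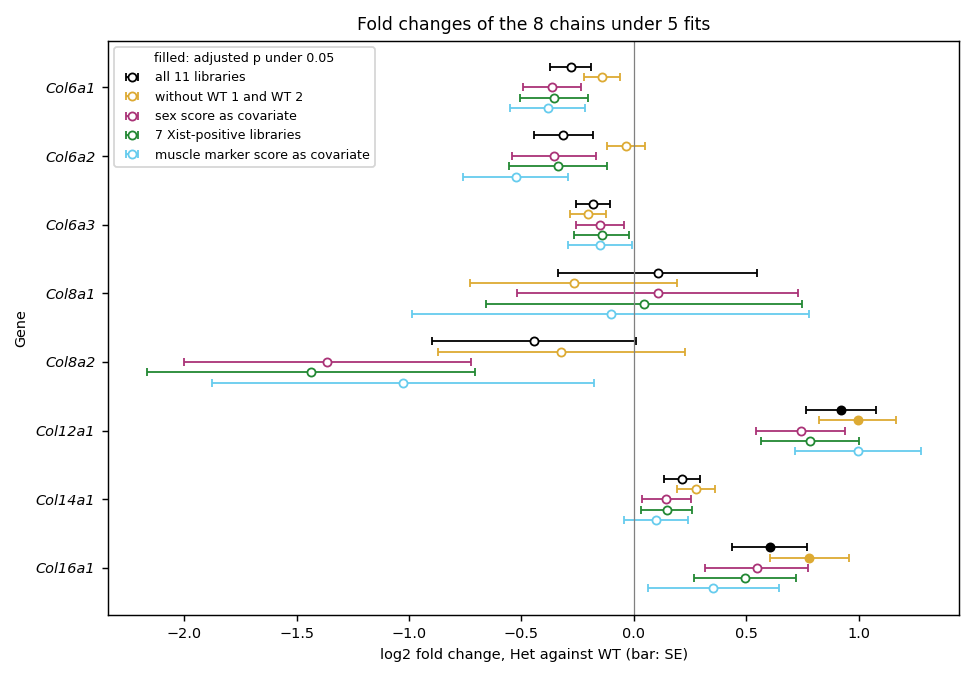
Log2 fold change of Het against WT for each of the 8 collagen chain genes with its standard error, in all 11 libraries, without WT 1 and WT 2, with the sex score, in the 7 Xist-positive libraries and with the skeletal muscle score; filled points passed the test. Col12a1 is at 0.92 and Col16a1 at 0.61 in all libraries, both stay above 0 in the 5 fits shown, and Col8a1 changes sign among them.

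Col12a1 (ENSMUSG00000032332, chromosome 9, 79598991 to 79718831, minus strand) encodes the single chain of collagen XII, which binds the surface of collagen I fibrils and is made in tissues under mechanical load. It was at 25.2, 16.8, 19.3, 22.7 and 13.5 CPM in WT 1 to 5. In Het 1 to 6 it was at 31.3, 35.5, 29.9, 39.5, 40.9 and 44.4 CPM. Every Het library was higher than every WT library, a separation in this direction that 2.41% of all tested genes showed. The mean rose from 19.5 ± 4.63 CPM (SD, n = 5) to 36.9 ± 5.68 CPM (SD, n = 6). This is a log2 fold change of 0.92 ± 0.16 (SE), 1.89-fold, with an adjusted p of 0.00264. The call was made in all 11 fits that leave out 1 library, with log2 fold changes of 0.82 to 1.03 and adjusted p of 0.00148 to 0.00998. Without WT 1 and WT 2 it was 0.99, with an adjusted p of 0.00513.

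With the sex score as a covariate the log2 fold change of Col12a1 was 0.74 ± 0.197 (SE), with an adjusted p of 0.116. In the 7 Xist-positive libraries it was 0.78 ± 0.219, with an adjusted p of 0.242, and the 2 Xist-positive Het libraries, at 31.3 and 35.5 CPM, both lay above all 5 WT libraries. With the skeletal muscle score it was 1.00 ± 0.279, with an adjusted p of 0.114. None of these 3 fits called Col12a1. The part of sex-linked differences and of the skeletal muscle markers in its level was not tested beyond them.

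Col16a1 (ENSMUSG00000040690, chromosome 4, 130047840 to 130099283, plus strand) encodes the chain of collagen XVI, a minor component that associates with fibrils or microfibrils depending on the tissue. It was at 13.3, 9.38, 8.22, 8.82 and 8.67 CPM in WT 1 to 5 and at 13.2, 14.0, 20.4, 13.6, 12.5 and 14.7 CPM in Het 1 to 6. WT 1 lay above Het 1 and Het 5, and the other 4 WT libraries lay below every Het library. The mean rose from 9.68 ± 2.07 CPM (SD, n = 5) to 14.7 ± 2.89 CPM (SD, n = 6), a log2 fold change of 0.61 ± 0.17 (SE), 1.52-fold, with an adjusted p of 0.0475.

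This call rests close to the threshold. It was kept without WT 1 (0.75, adjusted p 0.0155) and lost in each of the other 10 fits that leave out 1 library. Those gave adjusted p of 0.101 without WT 2, 0.117 without WT 3, 0.0859 without WT 4, 0.0819 without WT 5, 0.0586 without Het 1, 0.0748 without Het 2, 0.0853 without Het 3, 0.0736 without Het 4, 0.0563 without Het 5 and 0.084 without Het 6. The log2 fold change stayed between 0.49 and 0.75 in these fits. It was 0.55 ± 0.229 with the sex score (adjusted p 0.388), 0.49 ± 0.227 in the Xist-positive libraries (adjusted p 0.555) and 0.35 ± 0.293 with the skeletal muscle score (adjusted p 0.605). Without a filter on low counts the adjusted p was 0.0532. Without WT 1 and WT 2 it was 0.78 ± 0.176, with an adjusted p of 0.026.

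Col14a1 (ENSMUSG00000022371, chromosome 15, 55307750 to 55520803, plus strand) encodes the chain of collagen XIV, which resembles collagen XII in layout and interacts with the fibril-bound proteoglycan decorin. It was far more abundant than Col12a1, at 277, 289, 267, 260 and 238 CPM in WT 1 to 5 and at 276 to 337 CPM in Het (median 310). Of the Het libraries 5 of 6 lay above every WT library. The means were 266 ± 19.2 CPM over the WT libraries (SD, n = 5) and 309 ± 24.8 CPM over the Het libraries (SD, n = 6), and the log2 fold change of 0.22 ± 0.080 (SE) did not pass the test, with an adjusted p of 0.142. Across the fits it lay between 0.098 and 0.28, and none of them called it (lowest adjusted p 0.0818).

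**Figure D3:**
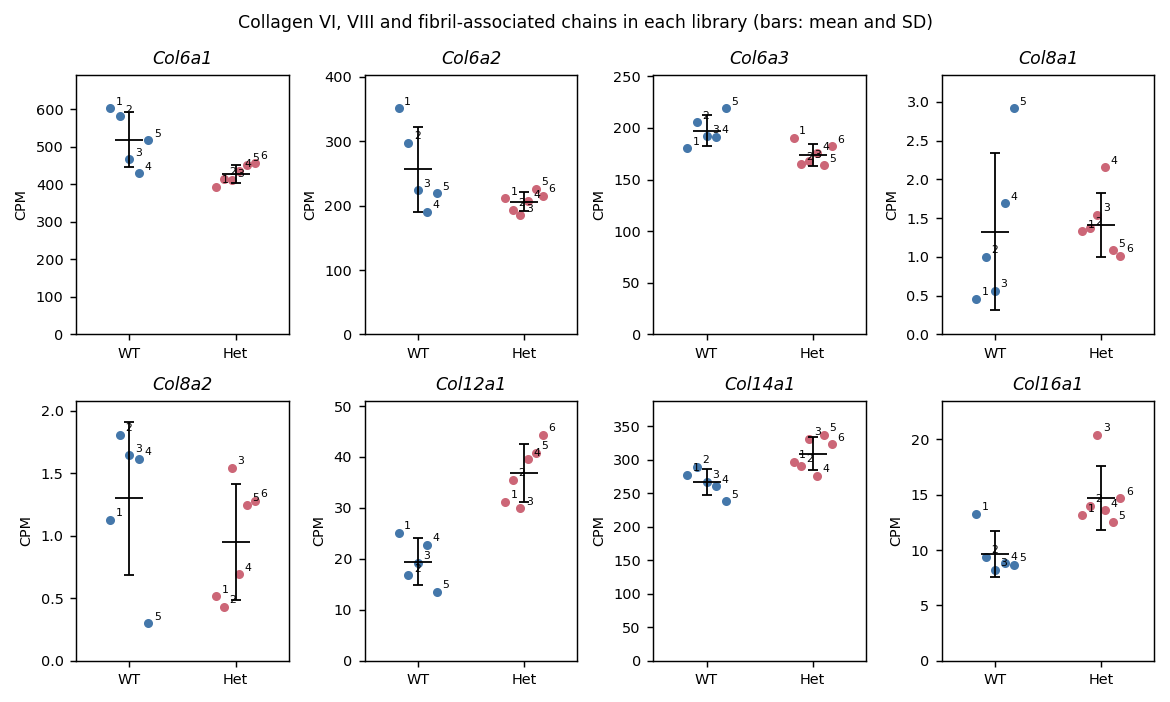
CPM of the 8 collagen chain genes in each of the 5 WT and 6 Het libraries, 1 panel per gene with its own axis, points numbered by library and bars for the mean and SD of each group. In the Col12a1 panel the Het libraries lie between 29.9 and 44.4 CPM and the WT libraries between 13.5 and 25.2, while the collagen VI panels show WT 1 and WT 2 at or near the top for Col6a1 and Col6a2.

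The collagen VI chains had lower means in Het, and none of the 3 passed the test. Col6a1 (ENSMUSG00000001119, chromosome 10, 76708792 to 76726168, minus strand) encodes the alpha 1 chain. It was at 602, 581, 467, 429 and 517 CPM in WT 1 to 5 and at 394, 414, 410, 436, 451 and 458 CPM in Het 1 to 6. WT 4 lay inside the Het range and the other 4 WT libraries lay above it. The mean was 519 ± 73.4 CPM over the WT libraries (SD, n = 5) and 427 ± 25.0 CPM over the Het libraries (SD, n = 6), a log2 fold change of -0.28 ± 0.092 (SE) with an adjusted p of 0.0951. It passed the threshold by DESeq2 (adjusted p 0.0475), with the fibroblast score as a covariate (-0.28, adjusted p 0.0441) and without WT 4 (-0.34, adjusted p 0.0351). Without WT 1 and WT 2 the log2 fold change was -0.14 ± 0.082, with an adjusted p of 0.436.

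Col6a2 (ENSMUSG00000020241, chromosome 10, 76595762 to 76623630, minus strand) encodes the alpha 2 chain and lies near Col6a1 on the same strand. It was at 351, 298, 224, 191 and 220 CPM in WT 1 to 5 and at 185 to 226 CPM in Het (median 209). WT 1 and WT 2 stood above the Het libraries and the other WT libraries lay within the Het range. The log2 fold change was -0.31 ± 0.13 (SE), with an adjusted p of 0.200, and it was -0.036 ± 0.086 without WT 1 and WT 2 (adjusted p 0.894) and -0.53 with the skeletal muscle score (adjusted p 0.295). The lower mean of Col6a2 in Het therefore rested on those 2 libraries.

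Col6a3 (ENSMUSG00000048126, chromosome 1, 90765923 to 90843971, minus strand) encodes the alpha 3 chain, the largest of the 3. It was at 180, 205, 192, 191 and 219 CPM in WT 1 to 5 and at 164 to 191 CPM in Het (median 171). WT 1, the highest library for Col6a2, was the lowest WT library for Col6a3. The log2 fold change was -0.18 ± 0.075 (SE), with an adjusted p of 0.195, and lay between -0.21 and -0.14 in all fits.

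Col8a1 (ENSMUSG00000068196, chromosome 16, 57624258 to 57754737, minus strand) and Col8a2 (ENSMUSG00000056174, chromosome 4, 126286793 to 126314330, plus strand) encode the chains of collagen VIII and were near the lower end of what the depth resolves. Col8a1 had 7, 15, 11, 23 and 39 counts in WT 1 to 5 and 15 to 28 counts in the Het libraries. That is 1.33 ± 1.01 CPM over the WT libraries (SD, n = 5) and 1.42 ± 0.411 CPM over the Het libraries (SD, n = 6), a log2 fold change of 0.11 ± 0.44 (SE) with an adjusted p of 0.939. Its sign changed with the library left out: it was -0.11 without WT 1, -0.099 without WT 3 and -0.050 without Het 4. Col8a2 had 17, 27, 32, 22 and 4 counts in WT 1 to 5 and 6 to 23 counts in Het, or 1.30 ± 0.614 CPM and 0.952 ± 0.463 CPM, a log2 fold change of -0.44 ± 0.45 with an adjusted p of 0.654. For Col8a2 it was -1.36 ± 0.64 with the sex score (adjusted p 0.462), -1.44 ± 0.731 in the Xist-positive libraries (adjusted p 0.602) and -1.03 with the skeletal muscle score (adjusted p 0.604). A difference between the groups was not detected for either chain. Besides the low counts, levels varied between libraries: the SD was 76.1% of the mean in WT and 29.0% in Het for Col8a1. For Col8a2 it was 47.3% and 48.6%. The parts of depth and of this spread were not tested. WT 5 had the highest level of Col8a1 and the lowest of Col8a2 among the WT libraries.

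The balance of chains was compared as log2 ratios of CPM within each library, with an exact two-sided permutation test and Benjamini-Hochberg adjustment over 7 ratios; the smallest p that 5 against 6 libraries allow is 0.004329. These ratios are not corrected for transcript length. Col6a2 to Col6a1 was -1.04 ± 0.180 over the WT libraries (SD, n = 5) and -1.05 ± 0.091 over the Het libraries (SD, n = 6), a difference of -0.0091 ± 0.089 (SE) with an exact p of 0.926 (adjusted 0.926). Col6a3 to Col6a1 was -1.39 ± 0.234 in WT and -1.30 ± 0.135 in Het, a difference of 0.092 ± 0.118 with an exact p of 0.442 (adjusted 0.551). Both differences are smaller than the SD between WT libraries. In the Xist-positive libraries the difference was 0.044 for Col6a2 to Col6a1 and 0.20 for Col6a3 to Col6a1. Leaving out WT 1 and WT 2 gave 0.10 and -0.065. Col8a2 to Col8a1 was 0.064 ± 1.97 in WT and -0.69 ± 0.962 in Het, and the difference of -0.75 ± 0.964 had an exact p of 0.446 (adjusted 0.551). It was -1.58 in the Xist-positive libraries and -0.084 without WT 1 and WT 2.

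Col14a1 to Col12a1, the ratio of the chains with matching layout, was 3.46, 4.11, 3.79, 3.52 and 4.14 in WT 1 to 5 and 2.80 to 3.47 in Het. Only Het 3, at 3.47, lay above a WT library, WT 1. The mean was 3.80 ± 0.317 over the WT libraries (SD, n = 5) and 3.08 ± 0.248 over the Het libraries (SD, n = 6). The difference of -0.73 ± 0.174 (SE) had an exact p of 0.00866 and an adjusted p of 0.0606, so it missed the threshold after adjustment. Its adjusted p lay between 0.0556 and 0.133 when 1 library was left out, and the difference between -0.81 and -0.64.

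Against Col1a1, the main fibril chain, Col12a1 was at -8.09 ± 0.546 over the WT libraries (SD, n = 5) and -7.59 ± 0.292 over the Het libraries (SD, n = 6), a difference of 0.50 ± 0.272 (SE) with an exact p of 0.0952 (adjusted 0.333). Col14a1 to Col1a1 was -4.29 ± 0.521 and -4.52 ± 0.301, a difference of -0.23 ± 0.263 with an exact p of 0.390 (adjusted 0.551). Col16a1 to Col1a1 was -9.09 ± 0.367 and -8.92 ± 0.399, a difference of 0.17 ± 0.231 with an exact p of 0.472 (adjusted 0.551). None of the 3 passed the test. Without WT 1 and WT 2 the differences were 0.16 for Col12a1 (adjusted p 0.733), -0.58 for Col14a1 (adjusted p 0.0833) and -0.096 for Col16a1 (adjusted p 0.905). In the Xist-positive libraries they were 0.63, -0.034 and 0.33. Col1a1 itself averaged 5565 ± 2461 CPM over WT and 7247 ± 2049 CPM over Het, a log2 fold change of 0.38 ± 0.25 with an adjusted p of 0.454 by edgeR, so its spread enters each of these ratios. Without WT 1 and WT 2 the log2 fold change of Col1a1 was 0.90 ± 0.192, and edgeR called it higher (adjusted p 0.0289).

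**Figure D4:**
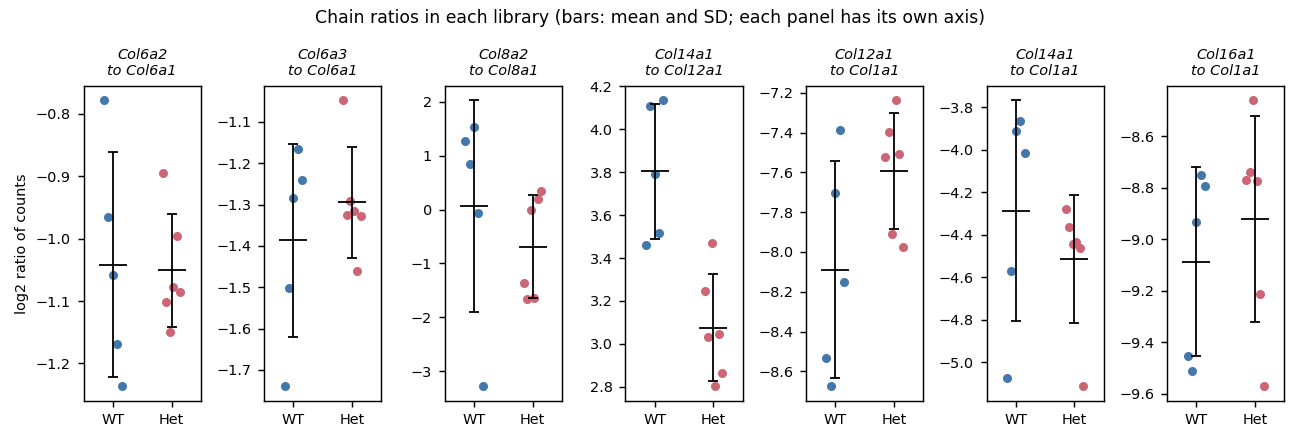
Log2 ratio of CPM for 7 pairs of collagen genes, 1 point per library with the mean and SD of each group, each panel on its own axis. The Het points for Col14a1 to Col12a1 lie between 2.80 and 3.47 and the WT points between 3.46 and 4.14, where Het 3 and WT 1 overlap; the groups overlap further in the other 6 ratios.

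Of the 11 further chains of the same families looked up, 5 were tested and Col6a4, Col9a2, Col9a3, Col10a1, Col21a1 and Col22a1 had too few counts. None rose and Col6a6 fell. The median log2 fold change over the 5 was -0.68, which is the value of Col6a6 itself. By DESeq2 and limma voom the calls were also 0 higher and 1 lower, and at an unadjusted p under 0.05 edgeR gave 0 higher and 1 lower. Col6a6, a collagen VI chain that can stand in for alpha 3, lay at 85.2 to 92.1 CPM in WT and at 42.4 to 70.8 CPM in Het. All Het libraries were below all WT libraries, as for 2.2% of all tested genes. The mean fell from 89.2 ± 2.70 CPM (SD, n = 5) to 55.5 ± 10.4 CPM (SD, n = 6), a log2 fold change of -0.68 ± 0.11 (SE) with an adjusted p of 0.00205. It was called in all 11 fits without 1 library and was -0.72 with the sex score (adjusted p 0.0643), -0.75 in the Xist-positive libraries (adjusted p 0.0992) and -0.90 with the skeletal muscle score (adjusted p 0.0719). The sum of the skeletal muscle markers, given above and mostly Tnnt3, was also lower in Het without overlap. Of the 4 tested markers 2 were not called, and the part of these markers in the Col6a6 result was not tested beyond that fit.

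Among 10 tested fibrillar collagen chains none rose and 2 fell, with a median log2 fold change of -0.28. At an unadjusted p under 0.05, 2 were higher and 4 lower by edgeR, DESeq2 called 0 higher and 4 lower (Col5a2, Col27a1, Col24a1 and Col3a1), and limma voom 0 higher and 2 lower. Col5a2, a chain of the collagen V that seeds fibrils, fell from 638 ± 31.5 CPM (SD, n = 5) to 495 ± 62.0 CPM (SD, n = 6), a log2 fold change of -0.37 ± 0.089 (SE) with an adjusted p of 0.0262. The groups did not overlap for Col5a2, at 614.7 to 690.7 CPM in WT and 431 to 585.9 CPM in Het. Its call was lost without WT 1 (adjusted p 0.0587), Het 1 (0.0531), Het 4 (0.0658), Het 5 (0.0608) and Het 6 (0.0606). Col27a1, a fibrillar chain known from cartilage, fell from 47.2 ± 10.4 to 30.6 ± 2.52 CPM, a log2 fold change of -0.62 ± 0.13 with an adjusted p of 0.0119, and was called in all 11 fits without 1 library. With the sex score the adjusted p was 0.432 for Col5a2 and 0.108 for Col27a1, and without WT 1 and WT 2 it was 0.0808 and 0.0909. It was 0.478 and 0.274 in the Xist-positive libraries and 0.239 and 0.14 with the skeletal muscle score. With the column number it was 0.112 and 0.0771, and in that fit 0 fibrillar chains were called lower and 1, Col5a1, higher (0.34, adjusted p 0.0441). Without WT 1 and WT 2, 0 fibrillar chains were called lower and 1, Col1a1, higher (0.90, adjusted p 0.0289).

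Among 10 tested receptors for collagens of these classes 2 rose and none fell, with a median log2 fold change of 0.084. At an unadjusted p under 0.05, 3 were higher and 0 lower by edgeR, DESeq2 called 3 higher (with Antxr1) and 0 lower, and limma voom 2 higher and 0 lower. Cspg4, the NG2 proteoglycan of mural cells and a binding partner of collagen VI, rose from 180 ± 11.1 CPM (SD, n = 5) to 222 ± 17.4 CPM (SD, n = 6), a log2 fold change of 0.31 ± 0.078 (SE) with an adjusted p of 0.0330. Every Het library lay above every WT library, but the call was kept in only 3 of 11 fits without 1 library. It was lost without WT 1 (adjusted p 0.0529), WT 2 (0.0565), WT 3 (0.0863), WT 4 (0.0693), Het 2 (0.0779), Het 4 (0.0729), Het 5 (0.0683) and Het 6 (0.0625). Itga3, the alpha 3 integrin subunit, rose from 49.7 ± 8.72 to 72.3 ± 11.2 CPM, a log2 fold change of 0.54 ± 0.13 with an adjusted p of 0.0233. The call on Itga3 was lost without WT 1 (adjusted p 0.0506), WT 3 (0.0597), Het 5 (0.0559) and Het 6 (0.0548). The adjusted p with the sex score was 0.267 for Cspg4 and 0.329 for Itga3, and without WT 1 and WT 2 it was 0.0588 and 0.0733. It was 0.409 and 0.386 in the Xist-positive libraries, 0.19 and 0.315 with the skeletal muscle score and 0.12 and 0.0539 with the column number. Without a filter on low counts that of Cspg4 was 0.0542.

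Of 10 tested matrix partners 1 rose and 1 fell, with a median log2 fold change of 0.17. At an unadjusted p under 0.05, 3 were higher and 2 lower by edgeR, DESeq2 called 2 higher (Tnc and Fmod, which encodes fibromodulin) and 1 lower, and limma voom 1 higher and 1 lower. Tnc encodes tenascin-C, a matrix glycoprotein related to the tenascin that binds collagens XII and XIV. It rose from 53.3 ± 7.83 CPM (SD, n = 5) to 156 ± 32.4 CPM (SD, n = 6), without overlap, a log2 fold change of 1.55 ± 0.14 (SE) with an adjusted p of 1.53e-05. With the sex score it was 1.53 (adjusted p 0.00118) and in the Xist-positive libraries 1.55 (adjusted p 0.0155), so its call was kept in both. Matn2 encodes matrilin-2, of the matrilin family that links collagen VI microfilaments to other matrix. It fell from 181 ± 30.4 to 81.8 ± 8.82 CPM, without overlap, a log2 fold change of -1.15 ± 0.11 with an adjusted p of 2.01e-05. With the sex score it was -1.06 (adjusted p 0.00613) and in the Xist-positive libraries -1.07 (adjusted p 0.0544).

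Of 16 tested genes for collagen modification, folding and processing 2 rose and none fell, with a median log2 fold change of -0.053. At an unadjusted p under 0.05, 3 were higher and 2 lower by edgeR, DESeq2 called 3 higher (with Pcolce) and 2 lower (P4ha2 and Adamts14), and limma voom 2 higher and 0 lower. P4ha3, a catalytic subunit of prolyl 4-hydroxylase, rose from 2.26 ± 0.711 CPM (SD, n = 5) to 5.93 ± 1.66 CPM (SD, n = 6), without overlap, a log2 fold change of 1.38 ± 0.26 (SE) with an adjusted p of 0.00534. It was called in all 11 fits without 1 library, and the adjusted p was 0.13 with the skeletal muscle score, 0.081 with the sex score and 0.178 over the Xist-positive libraries. Adamts2, a protease that removes the amino propeptide of fibrillar procollagens, rose from 344 ± 39.5 to 443 ± 43.5 CPM, a log2 fold change of 0.37 ± 0.093 with an adjusted p of 0.0326. The call on Adamts2 was lost without WT 1 (adjusted p 0.0588), WT 2 (0.0589), WT 3 (0.0912), WT 4 (0.0678), Het 1 (0.0517), Het 4 (0.0734), Het 5 (0.0656) and Het 6 (0.0706), and its adjusted p was 0.464 with the sex score, 0.583 in the Xist-positive libraries, 0.34 with the skeletal muscle score and 0.0745 without WT 1 and WT 2.

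**Figure D5:**
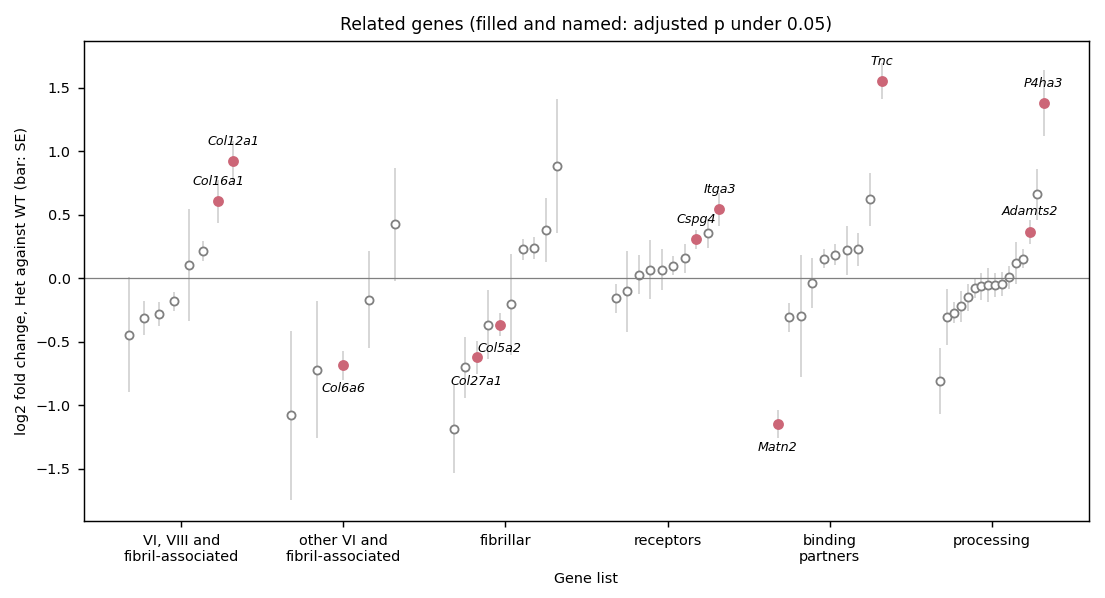
Log2 fold change of Het against WT with its standard error for the 8 genes and the tested genes of the related lists (other family chains, fibrillar chains, receptors, matrix partners, processing genes); genes that passed the test are filled and named. Tnc at 1.55 and P4ha3 at 1.38 are the highest and Matn2 at -1.15 is the lowest of the called genes.

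The genes whose levels ran closest to the called members were found by the root mean square difference of log2 CPM over the 11 libraries, each gene centred on its own mean. Predicted genes, genes with only an identifier or clone name, microRNA genes and mitochondrial genes were passed over, so the nearest are those among the rest. For Col12a1 the nearest were Mybl1, a Myb family transcription factor (0.161), Anln, which encodes the cytokinesis protein anillin (0.161), and Ttk, a kinase of the mitotic spindle checkpoint (0.186). They were higher in Het by log2 fold changes of 0.72 ± 0.15 (SE, adjusted p 0.00889), 0.81 ± 0.14 (adjusted p 0.0030) and 1.21 ± 0.22 (adjusted p 0.0048). The nearest of the other 7 chains was Col16a1, at 0.371. For Col16a1 the nearest were Cd248, a stromal and pericyte surface protein (0.156), Fzd1, a Wnt receptor (0.157), and Armcx6 (0.171), and the nearest collagen among the 8 was Col14a1, at 0.295. The log2 fold change of Fzd1 was 0.61 ± 0.12, adjusted p 0.00596, and that of Armcx6 was 0.58 ± 0.18, adjusted p 0.0806. That of Cd248 was 0.44 ± 0.11, adjusted p 0.0316, and its call was kept in 3 of 11 fits without 1 library: it was lost without WT 2 (adjusted p 0.0846), WT 3 (0.0739), WT 4 (0.0593), WT 5 (0.0583), Het 3 (0.0597), Het 4 (0.0581), Het 5 (0.0645) and Het 6 (0.057). None of these 6 genes passed the test with the sex score, with adjusted p from 0.0731 for Anln to 0.491 for Cd248, nor in the Xist-positive libraries (0.132 for Anln to 0.653 for Cd248) or with the skeletal muscle score (0.128 for Anln to 0.644 for Armcx6). Since a shared difference between the groups makes genes alike on this measure, these distances are a description over 11 libraries. Picking genes by likeness to a gene that is higher in Het also favours genes that are higher in Het. The fold changes and p-values of these 6 genes are therefore no separate result.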

How the data were processed

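Total RNA was purified with TriPure and a PureLink kit, made into Nextera XT libraries that do not mark strand, and read from 1 end (75 nt) in separate runs that the tables do not keep apart, per the labels' protocols. GRCm38, STAR 2.5.2a, limma, edgeR and DESeq2 are named in the submitters' processing notes without their roles. Which counter and which annotation were used is not given in the sources used here. From the authors come deposited raw counts per gene for 48733 rows (24 spike-in or transgene rows were not used) and a TMM-normalized CPM signal, deposited as a second table and used here only for alternative tests. No exon of the 8 genes overlaps an exon of another gene in GENCODE M21, from which positions, lengths and coding sequences were taken.

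Genes were filtered with filterByExpr (minimum count 10, minimum total 15), scaled by TMM (factors 0.979 to 1.031) and tested with edgeR 4.0.16 (R 4.3.3) by the robust quasi-likelihood F test on all 11 libraries without covariates. Benjamini-Hochberg adjustment ran over 14757 genes with a threshold of 0.05. Standard errors are |log2 fold change| / sqrt(F). The floor of 3 counts covers counting error only. CPM values are TMM-scaled. The sex score subtracts log2 CPM of Xist from the mean over 4 Y-linked genes (Uty, Kdm5d, Eif2s3y and Ddx3y); Xist-positive libraries have at least 100 Xist counts. Alternatives were RLE and upper quartile scaling, DESeq2 1.42.0, limma 3.58.1 (voom, and trend on the deposited CPM with 1 or 0.5 as pseudocount), no filter or a mean of 1 CPM, the replicate number as a block, covariates and leaving out libraries. The main test was checked on simulated counts. It recovered 43.3% of 1.5-fold, 67.2% of 2-fold and 95.5% of 4-fold changes. Of its 149 calls 12 were false, a larger share than the threshold of 0.05, and with nothing changed it made 0 calls. The simulated libraries held no sex difference and no shift like that of WT 1 and WT 2. The check therefore says nothing on how these affect the calls.

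The members, lists, tests and alternatives were chosen with earlier results of these data known. Named are all 8 members, the called genes of each related list, Tgfbr2 and the 3 nearest genes of each called member. Col1a1, Acan, Sox9, Dpep1, Pi16, Tnnt3, Tnni2 and the sex-linked genes are named as references or markers. Cnn1, Acta1, Mylpf, Acta2, Pecam1, Col5a1, Col3a1, Col24a1, Fmod, Antxr1, Pcolce, P4ha2 and Adamts14 were named after their values were seen.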

Additional observations from a re-analysis of the deposited data

Results flagged for a closer look

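In groups of 5 or 6 libraries, 3 of 30 sets of values (the 8 genes and 7 ratios in each group) held a library far from the others by Dixon's gap test, where chance gives about 1 in 20. Col16a1 was highest in WT 1, at 13.3 CPM, against 9.38 CPM or less in the other WT libraries. Col16a1 was also highest in Het 3, at 20.4 CPM, against 14.7 CPM or less in the other Het libraries. The log2 ratio of Col14a1 to Col1a1 was lowest in Het 6, at -5.11.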

How the results depend on the processing

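Of all tested genes 742 were called, 1295 by DESeq2, 329 with a replicate block, 125 with the sex score, 34 in the Xist-positive libraries, 432 without WT 1 and WT 2, 415 with the column number as a covariate, 95 with the skeletal muscle score and 458 (without WT 2) to 853 (without WT 4) when 1 library was left out. Of the 8 genes, 1 was called higher without a filter on low counts and with the block, and 0 with the sex score, in the Xist-positive libraries and with the muscle score; leaving out 1 library gave 1 to 2. DESeq2 and the fibroblast score gave 1 called lower, and leaving out 1 library 0 to 1. Over all tested genes, 348 of 28729 were called higher without a filter on low counts and 177 of 14757 with the block. DESeq2 called 641 of 14757 lower and the fit with the fibroblast score 421, beside 351 in the main fit. Same-numbered WT and Het libraries did not deviate together (correlations of -0.196 to 0.0644 over 5 pairs), so the numbers were not taken as pairs; with the replicate block Col12a1 was at 0.88 (adjusted p 0.0329) and Col16a1 at 0.61 (adjusted p 0.164).

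The ratio of Col6a2 to Col6a1 changed sign in the Xist-positive libraries (0.044) and without WT 1 and WT 2 (0.10), and lay between -0.058 and 0.057 when 1 library was left out. Without WT 1 and WT 2, Col6a3 to Col6a1 was -0.065 and Col16a1 to Col1a1 was -0.096. Col8a1 was -0.27 without WT 1 and WT 2, -0.10 with the muscle score and -0.11 to 0.61 when 1 library was left out. The cause of these changes was not tested. The collagen VIII chains had only 4 to 39 counts per library, and the part of depth in their results was not tested.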

Other observations

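Several related genes lay just above the threshold and were picked for this after their values were seen. By edgeR's quasi-likelihood test, Antxr1, a collagen VI receptor, had a log2 fold change of 0.35 ± 0.11 (SE, adjusted p 0.0869), from 38.0 ± 7.16 CPM in WT (SD, n = 5) to 48.6 ± 2.79 CPM in Het (SD, n = 6). Pcolce, an enhancer of procollagen C-propeptide removal, had 0.66 ± 0.20 (adjusted p 0.0800), from 245 ± 67.3 to 387 ± 109 CPM. Col24a1, a minor fibrillar chain, had -1.18 ± 0.35 (adjusted p 0.0620), P4ha2 -0.27 ± 0.081 (adjusted p 0.0710) and the procollagen protease Adamts14 -0.81 ± 0.26 (adjusted p 0.0881).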
